A study of Homo sapiens with 12 samples.

Results

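KRT5, KRT14, KRT15, KRT17, KRT6A, KRT6B and KRT16, the keratins of basal and of activated stratified epithelium, were followed in a human mammary epithelial line in which EP300 had been knocked down. The 7 genes were taken by symbol and each had 1 of the 29094 accession rows of the count table. All 7 were among the 13424 rows that passed the filter on low counts, although KRT14 passed it through the control libraries alone. EP300 encodes p300, an acetyltransferase that acts on histones and other proteins and serves as a transcriptional coactivator.

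The cells were MCF10AT, an established line of MCF10A-type breast epithelium transformed by HRasG12V, an activated form of the RAS oncoprotein, which every group carried. They grew in medium with 5% horse serum, epidermal growth factor, insulin, cholera toxin and hydrocortisone. Each of 4 stable populations had been made by lentiviral delivery of a hairpin and selection in puromycin for 3 days. EP300 KD1 and EP300 KD2 carried different EP300 hairpins, NS1 and NS2 carried non-silencing controls, and each hairpin was compared with the control of the same number, although the labels do not name which control belongs to which hairpin. The labels do not say whether a population was a pool or a clone, nor whether its 3 replicate libraries stem from independent cultures. The p-values therefore rest on variation among libraries that could be purely technical.

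Keratins are intermediate filament proteins that assemble only as pairs of an acidic type I and a basic type II chain. In stratified epithelium the type II keratin KRT5 pairs with the type I keratins KRT14 and KRT15 in the basal layer. After wounding or growth stimulation, and in many tumours, epithelial cells make KRT6A, KRT6B, KRT16 and KRT17, the stress or activation keratins. In the breast KRT5, KRT14 and KRT17 are known as keratins of the basal, myoepithelial side of the duct.

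The type II genes lie on chromosome 12 and the type I genes on chromosome 17, all on the minus strand of hg38. KRT6B (NM_005555) spans chr12:52446651-52452146, KRT6A (NM_005554) chr12:52487176-52493257 and KRT5 (NM_000424) chr12:52514575-52520394, each with 9 exons. KRT15 (NM_002275) spans chr17:41513745-41518890, KRT14 (NM_000526) chr17:41582279-41586895, KRT16 (NM_005557) chr17:41609778-41612767 and KRT17 (NM_000422) chr17:41619442-41624575, each with 8 exons. Values below are for whole genes, with exons and untranslated regions not separated.

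Several of these genes are close copies, which bears on how reads could be assigned. KRT6A and KRT6B are identical at 97.5% of their 1692 aligned coding bases, and KRT6C, a near copy of both that lies between them, matches them at 97.9% and 98.5%. The stretch of exon 2 below, coding bases 663 to 722 on the minus strand of GRCh38 in the GENCODE v29 transcripts, is shown because it is a place where a read can tell the 3 genes apart. It lies at chr12:52491555-52491614 in KRT6A, chr12:52450439-52450498 in KRT6B and chr12:52472099-52472158 in KRT6C, and capitals mark the bases at which the genes differ.
KRT6A: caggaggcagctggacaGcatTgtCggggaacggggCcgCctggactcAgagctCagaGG
KRT6B: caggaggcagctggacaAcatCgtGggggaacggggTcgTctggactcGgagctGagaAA
KRT6C: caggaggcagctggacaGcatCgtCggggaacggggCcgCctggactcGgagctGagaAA
Within these 60 bases KRT6B differed from KRT6A at 9 positions and KRT6C differed from KRT6A at 5. Over the whole transcripts, 39.1% of the 50-base windows of KRT6A and 47.1% of those of KRT6B were found unchanged in a transcript of another gene, mostly KRT6C. The share was 23.8% for KRT14, 22.01% for KRT16 and 17.4% for KRT17, but 3.99% for KRT5 and 0.328% for KRT15. How the authors' counting treated reads that fit several genes is not given in the sources used here, so counts of KRT6A, KRT6B, KRT14, KRT16 and KRT17 are less certain than those of KRT5 and KRT15.

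The RefSeq promoter table (GRCh38.p14) held 1 of the 7 genes, KRT5. Its 250 bases before the start, chr12:52520395-52520644 on the minus strand, are shown because KRT5 was the most abundant of the 7 and fell in both comparisons. Capitals mark the single match to CACCC, the box of KLF and SP factors, whose first base lies at -147.
KRT5: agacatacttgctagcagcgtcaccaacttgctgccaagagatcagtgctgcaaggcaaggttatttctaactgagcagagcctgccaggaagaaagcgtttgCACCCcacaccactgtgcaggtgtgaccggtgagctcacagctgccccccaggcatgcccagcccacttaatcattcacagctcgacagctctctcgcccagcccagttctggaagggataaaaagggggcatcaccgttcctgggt
CACCC was present on either strand in 54.7% of all 35116 promoter windows of this length. TATAAA (in 10.7% of windows), the AP-1 motif TGANTCA (6.57%), the AP-2 motif GCCNNNGGC (19.8%) and the STAT motif TTCNNNGAA (6.57%) had no match among these letters.

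The libraries held 31396653 to 45606950 counts. EP300 itself was measured at 172 ± 5.11 CPM in NS1 and 107 ± 0.884 in EP300 KD1, and at 174 ± 8.14 in NS2 and 95.8 ± 3.87 in EP300 KD2 (mean ± SD, n = 3; CPM are counts relative to library size after TMM scaling). Its log2 change was -0.68 with the first hairpin and -0.86 with the second (edgeR adjusted p = 2.6e-12 and 1.1e-13). The 7 keratins took 0.535 to 0.546% of all counts in the NS1 libraries and 0.328 to 0.346% in those of EP300 KD1. In NS2 they took 0.572 to 0.586% and in EP300 KD2 0.231 to 0.243%, the lowest share among the groups.

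KRT5, the type II partner of the basal pair, was the most abundant of the 7. It was measured at 2737, 2687 and 2765 CPM in the 3 NS1 libraries and at 1689, 1641 and 1677 in those of EP300 KD1. In NS2 it stood at 3373, 3400 and 3350 CPM and in EP300 KD2 at 1433, 1427 and 1378. All 6 knockdown libraries lay under all 6 control libraries. With the first hairpin the log2 change was -0.71 ± 0.02 (SE), and with the second -1.26 ± 0.02 (edgeR quasi-likelihood test with Benjamini-Hochberg adjustment over 13424 genes, adjusted p = 3.34e-16 and 1.66e-19), which left 61.1% and 41.9% of the control level.

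KRT15, a type I keratin of the basal layer known from the hair follicle bulge, fell the most of the 7 with either hairpin. The NS1 libraries held 861, 874 and 900.4 CPM and the EP300 KD1 libraries 49.5, 46.8 and 46.5. The NS2 libraries held 684, 710.2 and 677 CPM and the EP300 KD2 libraries 38.3, 38.6 and 36.2. The groups were far apart in both sets, with knockdown levels at 5.42% and 5.47% of their controls. The log2 changes were -4.21 ± 0.03 and -4.19 ± 0.03, ranking 55 and 26 by size among all genes tested. The change differed between the hairpins by 0.01 ± 0.05 (edgeR adjusted p = 0.837), but by -0.68 ± 0.05 (adjusted p = 6.16e-10) when the controls were exchanged.

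KRT14, the usual type I partner of KRT5, was close to absent from these counts. The raw counts were 32, 36 and 47 in NS1 and 5, 6 and 5 in EP300 KD1. They were 11, 20 and 20 in NS2 and 5, 6 and 4 in EP300 KD2, while KRT5 had between 44661 and 125296 counts in each library. Each knockdown group lay below its control, at 0.159 ± 0.0135 against 1.03 ± 0.0869 CPM and at 0.136 ± 0.0253 against 0.521 ± 0.151. The log2 changes were -2.66 ± 0.28 and -1.92 ± 0.32. They are given without a test, since KRT14 reached the level of the filter in 6 of 6 control libraries and in no knockdown library, so that it was tested only because it was high in the controls. With no knockdown library above 6 counts, the sizes are uncertain too, as is the share of the counts that came from copies of the gene.

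KRT17, a type I keratin of basal and of activated epithelium, fell with both hairpins. It was measured at 726, 697 and 704.5 CPM in NS1 and at 309.9, 296 and 292 in EP300 KD1. In NS2 it stood at 577, 601 and 585 CPM and in EP300 KD2 at 149.8, 145 and 149. No knockdown library reached the level of a control library. The log2 changes were -1.24 ± 0.03 and -1.99 ± 0.03 (edgeR adjusted p = 4.35e-18 and 2.46e-20).

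**Figure D1:**
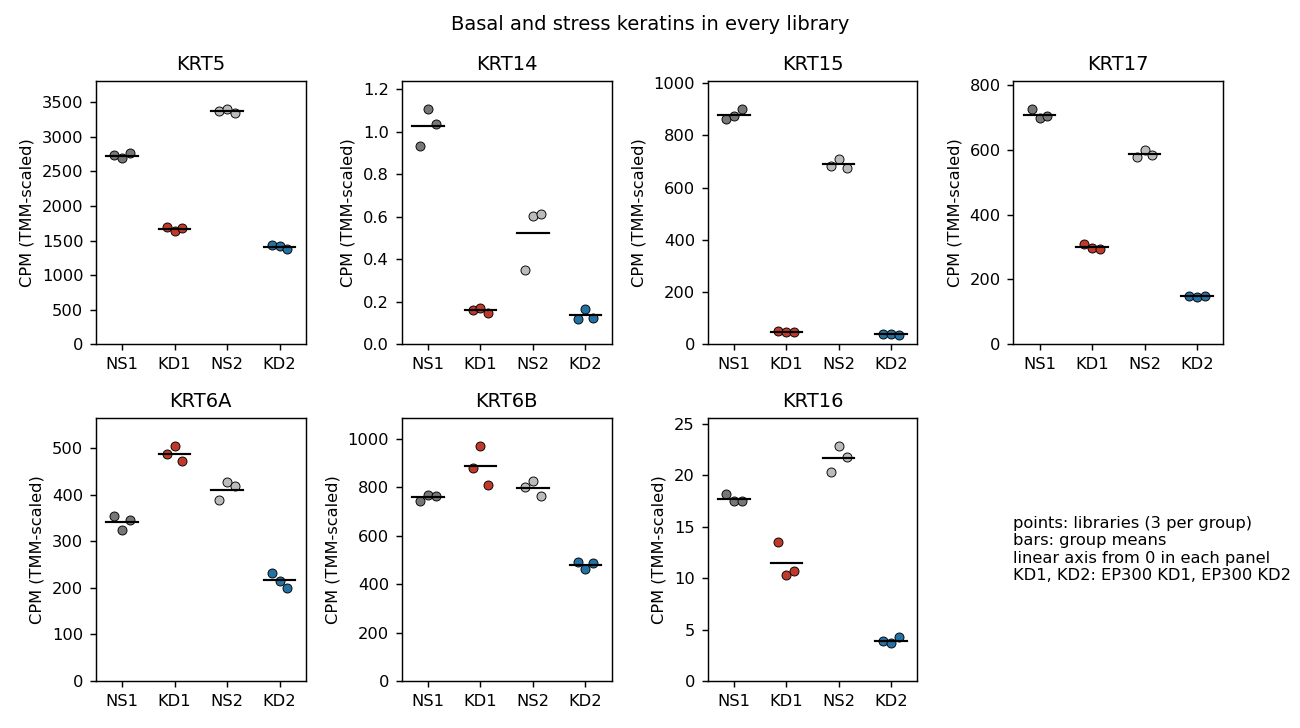
TMM-scaled CPM (linear axis from 0) of each of the 7 keratins in every library, with bars at the means of the 4 groups of 3 libraries. KRT5, KRT14, KRT15 and KRT17 were below their control in both knockdown groups, while KRT6A and KRT6B were above NS1 in EP300 KD1 and below NS2 in EP300 KD2.

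The stress keratins KRT6A and KRT6B, type II chains of activated epidermis, moved in opposite directions with the hairpins. KRT6A was measured at 354, 325 and 346 CPM in NS1 and at 487.5, 505.04 and 472 in EP300 KD1. In NS2 it stood at 388, 427 and 419 CPM, and in EP300 KD2 at 233, 214 and 200.4. The 3 EP300 KD1 libraries were thus the highest of the 12 and the 3 EP300 KD2 libraries the lowest. The log2 change was 0.51 ± 0.05 with the first hairpin and -0.93 ± 0.05 with the second (edgeR adjusted p = 7.96e-09 and 2.22e-12).

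KRT6B, whose coding sequence is as long as that of KRT6A, stood above KRT6A in every library and showed the same split. It was measured at 744, 769 and 764 CPM in NS1 and at 881, 971 and 808 in EP300 KD1, where the replicates were spread most widely. In NS2 it stood at 800.3, 827 and 765 CPM and in EP300 KD2 at 492, 463 and 486. EP300 KD1 lay above NS1 in every library but overlapped NS2, and EP300 KD2 lay below all other libraries. The log2 change was 0.22 ± 0.05 with the first hairpin and -0.73 ± 0.05 with the second (edgeR adjusted p = 0.00026 and 7.58e-11).

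KRT6C, the near copy of both, held 3.95 ± 0.440 CPM in NS1 and 4.74 ± 0.315 in EP300 KD1, and 4.62 ± 0.196 in NS2 and 2.60 ± 0.423 in EP300 KD2. Its log2 changes were 0.27 (edgeR adjusted p = 0.0512, not past the threshold of 0.05) and -0.83 (adjusted p = 9.72e-06). Its values had the same signs as those of KRT6A and KRT6B at far lower levels, and reads shared among the 3 cannot be told apart here.

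KRT16, the type I partner of the KRT6 chains, fell with both hairpins and so parted from KRT6A and KRT6B in the first. It was measured at 18.2, 17.5 and 17.5 CPM in NS1 and at 13.5, 10.3 and 10.7 in EP300 KD1. In NS2 it stood at 20.4, 22.9 and 21.8 CPM and in EP300 KD2 at 3.85, 3.68 and 4.26. Both knockdown groups lay below both controls without overlap. The log2 changes were -0.63 ± 0.08 and -2.47 ± 0.09 (edgeR adjusted p = 1.45e-06 and 2.75e-14).

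KRT14 left aside, 4 of the other 6 keratins fell and 2 rose with the first hairpin, with a median log2 change of -0.67 against -0.01 over all genes tested. In that comparison 64.9% of all genes were called, 32.3% of them lower and 32.6% higher, all as shares of the genes tested. With the second hairpin 6 of 6 fell (median -1.62, all genes -0.00), where 57.8% of all genes were called and 29.9% were lower. At least 2-fold lower were KRT15 and KRT17 with the first hairpin, where 4.34% of all genes passed that limit, and KRT5, KRT15, KRT16 and KRT17 with the second, where 5.13% did. Called lower with both hairpins were 4 of the 6 (KRT5, KRT15, KRT16 and KRT17), against 17.3% of all genes, and none was called higher with both, against 15.3%. KRT6A and KRT6B were called in opposite directions, as were 11.2% of all genes. In these bulk samples fewer cells that express a keratin and less keratin messenger per cell cannot be told apart.

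**Figure D2:**
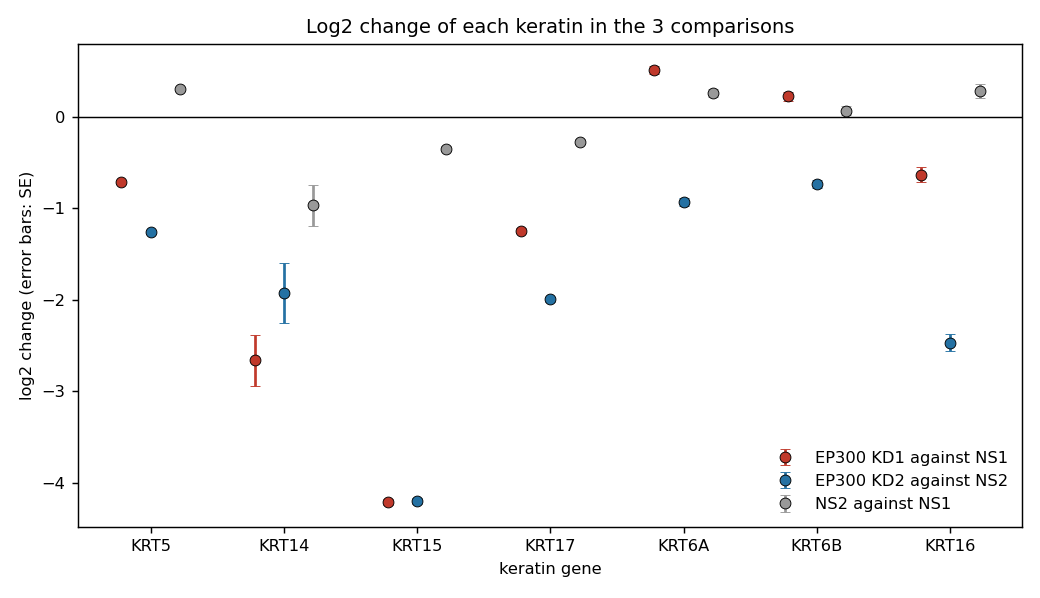
Log2 change of each keratin (points, with SE as error bars) for the first hairpin, the second hairpin and NS2 against NS1. KRT15 lay at -4.21 and -4.19 with the hairpins, KRT6A at 0.51 and -0.93, and the controls differed by at most 0.97 in size, for KRT14.

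The difference between the hairpins was tested directly as the second change minus the first. KRT14 left aside, 5 of the other 6 keratins were lower in this contrast. Of all genes 50.8% passed this test, 29.2% in that direction and 21.6% in the other, in which none of the 6 keratins passed. That split of all genes turned with the scaling, to 3117 lower and 3780 higher by library totals against 3915 and 2903 with TMM. The log2 difference was -0.55 ± 0.03 for KRT5 and -0.75 ± 0.04 for KRT17 (edgeR adjusted p = 1.34e-11 and 8.92e-12). It was larger in size for KRT6A, KRT6B and KRT16, at -1.44 ± 0.06, -0.96 ± 0.06 and -1.84 ± 0.12 (edgeR adjusted p = 1.66e-12, 5.45e-10 and 5.24e-10). For KRT14 it was 0.74 ± 0.48, given without a test as are its changes. Exchanging the controls, an alternative added after the values were seen, ended the call for KRT5, at 0.07 ± 0.03 (edgeR adjusted p = 0.0618). The untested KRT14 then stood at -1.20 ± 0.48. KRT6A, KRT6B, KRT16 and KRT17 stayed lower in that contrast, at -0.91, -0.81, -1.26 and -1.29. KRT17 was then no longer smaller in size than the others, so the order of sizes depends on the control. Of the 6 keratins, these 4 passed under both assignments of controls. EP300 itself differed by -0.18 ± 0.05 (edgeR adjusted p = 0.00488), a lower remaining level with the second hairpin, and its part in these differences was not tested.

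The controls were not alike in their keratins either. NS2 stood above NS1 for KRT5 (log2 0.31 ± 0.02), KRT6A (0.27 ± 0.05) and KRT16 (0.29 ± 0.08), with edgeR adjusted p = 2.24e-09, 0.000217 and 0.00819. It stood below NS1 for KRT14 (-0.97 ± 0.22), KRT15 (-0.35 ± 0.03) and KRT17 (-0.27 ± 0.03), with edgeR adjusted p = 0.00282, 1.43e-08 and 2.49e-07. KRT6B was not called (0.07 ± 0.05, edgeR adjusted p = 0.278). Thus 3 rose and 3 fell where 27.5% of all genes were called, 14.2% higher and 13.4% lower. With DESeq2 the KRT14 difference missed the threshold, at -0.98 and adjusted p = 0.0547. NS2 against NS1 shares its libraries with both knockdown comparisons, which share none with each other. Set against the other control, each keratin kept its direction with either hairpin, and each but the untested KRT14 kept its call, but sizes moved. KRT6A then changed by 0.25 in place of 0.51 with the first hairpin, KRT14 by -1.69 and -2.89, and KRT5 by -1.02 and -0.95, so that its order between the hairpins turned.

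Ratios between keratins within a library, which do not depend on the scaling of libraries, showed that the composition changed as well as the amount. KRT15 counts were 0.322 of KRT5 counts in NS1 and 0.0285 in EP300 KD1, and 0.205 in NS2 and 0.0267 in EP300 KD2 (geometric means of 3). The KRT17 to KRT5 ratio went from 0.260 to 0.179 and from 0.174 to 0.105. The KRT6A to KRT5 ratio moved the other way, from 0.125 to 0.292 and from 0.122 to 0.153. KRT6A therefore took a larger place beside KRT5 with both hairpins, although its own level fell with the second. KRT16 was 0.0520 and 0.0528 of KRT6A in the controls but 0.0234 and 0.0183 in the knockdowns.

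Each of these ratios separated the groups in both sets, with each hairpin set against the control of its number. Against NS2, KRT17/KRT5 did not fall with the first hairpin, at 0.174 to 0.184 in EP300 KD1 and 0.171 to 0.177 in NS2. For KRT15/KRT5, a ratio chosen after the fall of KRT15 was seen and therefore not tested, the mean log2 change over the sets was -3.22. It was -0.63 for KRT17/KRT5, 0.77 for KRT6A/KRT5 and -1.34 for KRT16/KRT6A. In a two-sided exact permutation test that reassigned labels within each set, each of these 3 had p = 0.005, the smallest that test can give, and 0.00583 after adjustment over 7 ratios. Within a single set of 3 against 3 the smallest possible p is 0.10, which each reached. Ratios with KRT14 are given without a test, as KRT14 itself is. The KRT15/KRT14 ratio went from 847 to 274 and from 1326 to 255, a mean log2 change of -2.00. KRT14/KRT5 changed by -1.87 and -0.56 in the sets (mean -1.21). That last value rests on few counts: in NS2 it overlapped EP300 KD2, and with 5 in place of 0.5 added to each count the mean was -0.62.

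**Figure D3:**
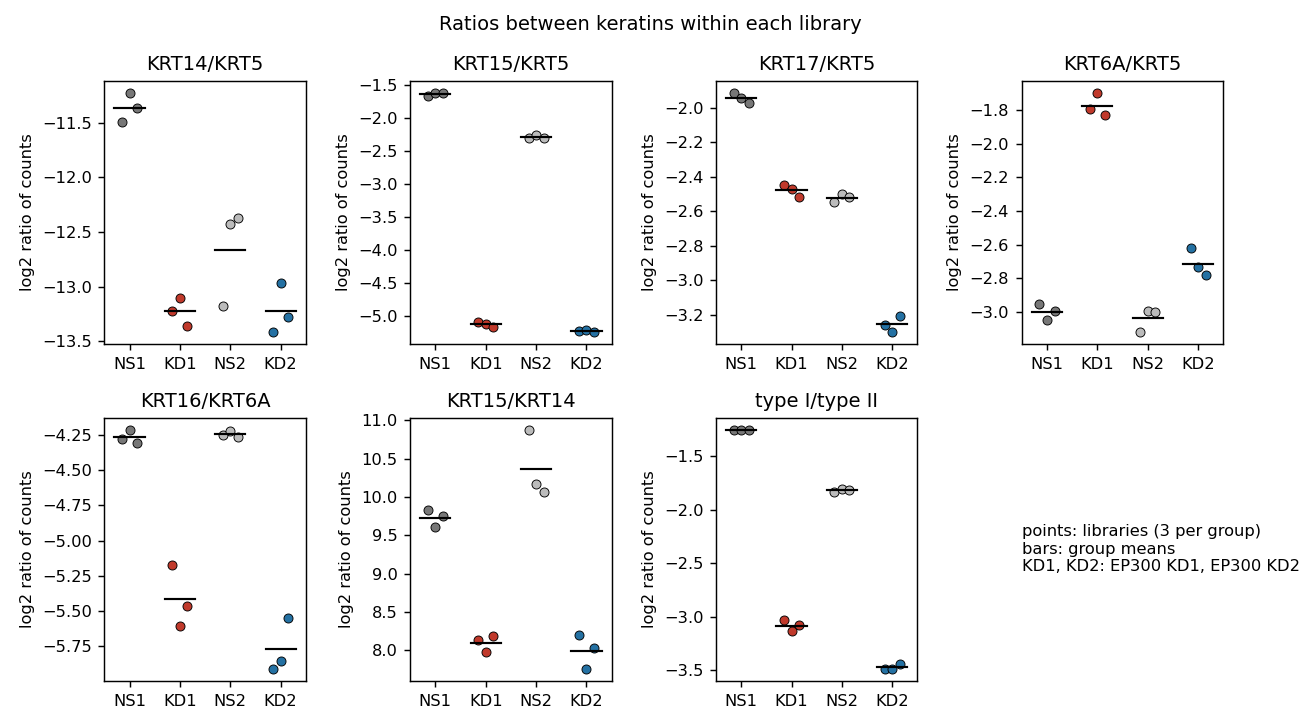
Log2 ratio of counts between keratins in every library (points) with group means (bars), in 4 groups of 3; axes do not start at 0. The KRT15/KRT5 ratio was near -5 in both knockdown groups and above -2.5 in both controls, and KRT6A/KRT5 was highest in EP300 KD1.

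Within the 7 keratins the balance of type I and type II transcripts shifted too. Summed counts of the type I members KRT14, KRT15, KRT16 and KRT17 were 0.419 of the summed type II members KRT5, KRT6A and KRT6B in NS1 and 0.118 in EP300 KD1. In NS2 the ratio was 0.284 and in EP300 KD2 0.0900. The mean log2 change was -1.74 (two-sided exact permutation p = 0.005, adjusted 0.00583 over 7 ratios). KRT15 held the most type I counts in the controls, 98737 in NS1 and 67285 in NS2 against 79460 and 57259 for KRT17. In the knockdowns it held 4778 in EP300 KD1 and 4187 in EP300 KD2, against 30065 and 16401 for KRT17. Much of the shift is thus the fall of KRT15 already described, and the ratio without KRT15 was not tested. KRT18, a type I keratin outside the 7, and the abundant type II keratins KRT7 and KRT81 were not part of these sums and are described below. The ratio is therefore not that of all keratins in these cells.

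To compare levels between genes, TMM-scaled counts were divided by coding length. On this scale (CPM per coding kilobase) the 7 keratins summed to 3395 ± 39.5 in NS1 and 2029 ± 51.7 in EP300 KD1, and to 3594 ± 57.9 in NS2 and 1354 ± 27.9 in EP300 KD2. KRT5 made up 45.4 ± 0.139% of the sum in NS1 and 46.5 ± 1.65% in EP300 KD1, and 53.0 ± 0.506% in NS2 and 58.9 ± 0.707% in EP300 KD2. KRT15 went from 18.9 ± 0.339% to 1.72 ± 0.0587% and from 14.0 ± 0.130% to 2.03 ± 0.0509%. The type II members rose from 64.6 ± 0.0417% to 86.5 ± 0.433% and from 72.9 ± 0.196% to 89.3 ± 0.185% of the sum.

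In NS1 the order of levels per coding kilobase was KRT5, KRT15, KRT17, KRT6B, KRT6A, KRT16 and KRT14, with no overlap between neighbours. NS2 had the same order except that KRT6B and KRT17 overlapped. In both knockdown groups the order was KRT5, KRT6B, KRT6A, KRT17, KRT15, KRT16 and KRT14, again without overlap between neighbours. KRT15 thus went from place 2 to place 5, and the KRT6 chains stood next to KRT5. With the length of the paired transcript, 5237 bases for KRT15 and longer than that gene's RefSeq span, KRT15 made up 7.61% of the sum in NS1 and 0.617% in EP300 KD1, at place 4 in NS1.

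**Figure D4:**
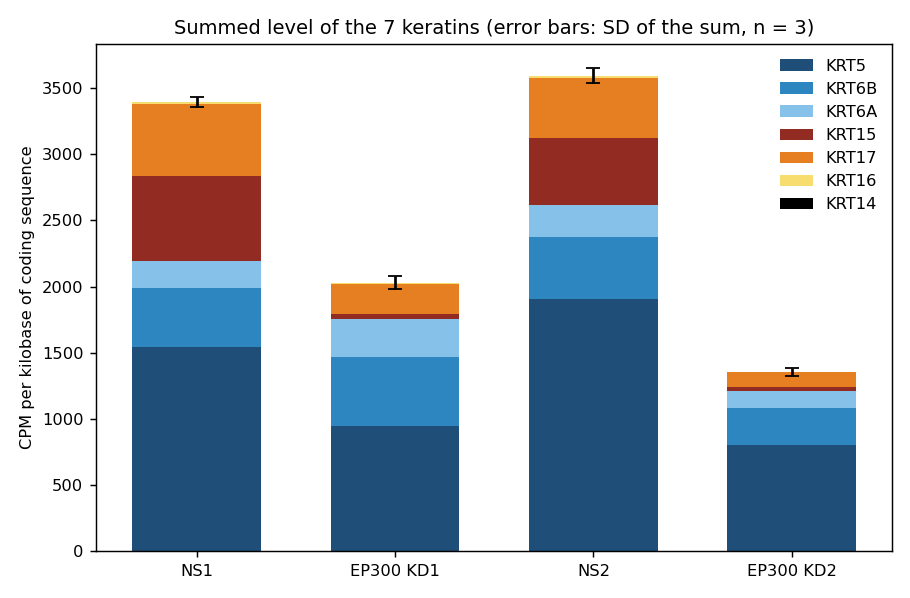
Stacked bars give the mean level of each keratin in CPM per kilobase of coding sequence in the 4 groups, type II chains in blue at the bottom; error bars are the SD of the sum over 3 libraries. The sum fell from 3395 to 2029 and from 3594 to 1354, and the KRT15 segment shrank to 1.72% and 2.03% of it.

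Of the keratin genes outside the 7, 11 had a row that was tested: 8 fell and 1 rose with the first hairpin (32.3% and 32.6% of all genes), and 6 fell and none rose with the second (29.9% and 27.9%). KRT13, like KRT14, reached the level of the filter in the controls alone, and without it 7 fell and 1 rose of 10 with the first (median log2 change -0.50) and 5 fell with the second (median -0.35). The riser, KRT8, was tested on a non-coding accession only and is left without a direction. Its coding accession had 7 counts in all libraries together and was not tested. KRT13, a type I keratin of internal stratified epithelia whose gene lies 8133 bases from KRT15, had 2.34 ± 0.0886 CPM in NS1 and 0.0707 ± 0.0367 in EP300 KD1, and 0.946 ± 0.171 in NS2 and 0.136 ± 0.0230 in EP300 KD2. Its log2 changes of -4.996 and -2.77 are likewise given without a test. KRT19, a simple-epithelial type I keratin and the nearest tested gene on one side of KRT14, went the same way at low levels, with log2 changes of -2.68 and -2.91 (edgeR adjusted p = 1.34e-10 and 2.46e-10). Of the type I genes of the chromosome 17 cluster, 5 were tested without that restriction, KRT10, KRT15, KRT16, KRT17 and KRT19, and each was lower with both hairpins, as were 17.3% of all genes. EIF1, a translation initiation factor and the nearest tested gene beyond KRT17, fell by 0.16 and 0.34 on the log2 scale.

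Among the simple-epithelial keratins, KRT18, which pairs with KRT8 in simple and luminal epithelium, went from 1431 to 949 CPM and from 1531 to 1165, with log2 changes of -0.59 and -0.39 (edgeR adjusted p = 3.28e-15 and 1.87e-12). KRT7, a type II simple keratin, stood at 3564 and 2985 CPM with the first set and at 3427 and 3401 with the second, with log2 changes of -0.26 (adjusted p = 4.42e-09) and -0.01 (edgeR adjusted p = 0.687). Among other keratins of stratified epithelium, KRT80 fell by 0.95 and 0.91 and KRT10, a suprabasal keratin, by 1.09 and 0.57 on the log2 scale. The hair keratin KRT81, counted at 2635 CPM in NS1, 1993 in EP300 KD1, 2577 in NS2 and 2525 in EP300 KD2, changed by -0.40 (edgeR adjusted p = 1.83e-05) and -0.03 (adjusted p = 0.719).

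**Figure D5:**
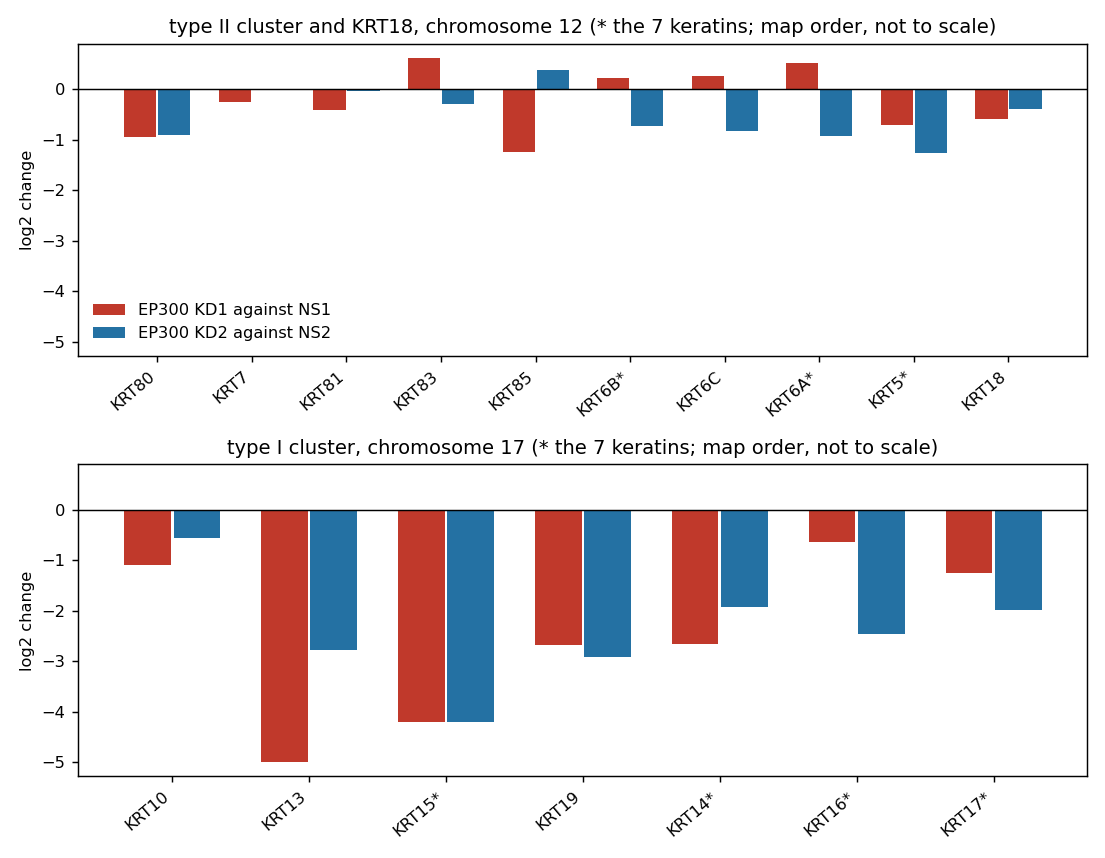
Log2 change with each hairpin (bars, linear axis from 0) for the tested keratin genes of chromosome 12 and chromosome 17 in map order, not to scale; KRT8 is left out. The 7 type I genes on chromosome 17 had negative changes with both hairpins (KRT13 and KRT14 entered the test through the controls alone), while KRT6B, KRT6C and KRT6A on chromosome 12 lay above 0 with the first and below 0 with the second.

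KRT15 holds the microRNA gene MIR6510 within its span, at chr17:41517164-41517217. Its row had 89 counts in all 12 libraries together and fitted log2 changes of -4.23 and -2.53, which rest on few counts. Reads of the host transcript and of the microRNA precursor cannot be told apart in that interval.

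Genes for proteins that tie keratin filaments to junctions and to the basement membrane were examined next. Of 19 tested linkers and anchors, 14 fell and 3 rose with the first hairpin (median log2 change -0.31), where 32.3% of all genes fell and 32.6% rose. With the second 13 fell and 2 rose (median -0.52), where 29.9% of all genes fell and 27.9% rose. DST, whose epithelial product BPAG1 binds keratin at hemidesmosomes, changed by -1.13 and -1.41, and COL17A1, the transmembrane collagen of hemidesmosomes, by -0.68 and -1.55. The desmosomal cadherins DSC2 and DSG3 changed by -0.85 and -0.99 and by -0.63 and -1.33, and the plakin PPL by -0.36 and -1.47. ITGA6, the integrin subunit of hemidesmosomes, rose by 0.09 with the first hairpin and fell by 0.77 with the second. Each of these passed the edgeR threshold in both comparisons.

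Among 25 tested transcription factors known to act on basal or activation keratin genes, 16 fell and 7 rose with the first hairpin (median log2 change -0.11; 64.9% of all genes were called, 32.3% lower), and 19 fell and 3 rose with the second (median -0.36; 57.8% called, 29.9% lower). TP63, the master factor of stratified epithelium and an activator of KRT5 and KRT14, was measured at 66.0 ± 3.97 CPM in NS1 and 39.0 ± 1.96 in EP300 KD1, and at 73.5 ± 2.19 in NS2 and 32.2 ± 0.713 in EP300 KD2. Its log2 changes were -0.76 and -1.19 (edgeR adjusted p = 1.67e-11 and 2.88e-14). The epithelial factors KLF4 (-1.15 and -1.27), GRHL2 (-1.12 and -0.97), GATA3 (-1.40 and -1.13), RARG (-1.08 and -0.55) and SOX9 (-0.63 and -0.69) also fell with both.

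Genes of activated epidermis, which are known to rise together with KRT6 and KRT16 after wounding, were counted in the same way. Of 24 tested, SPRR1A reached the level of the filter only in the controls and MMP9 only in the knockdowns. Of the other 22, 12 rose and 9 fell with the first hairpin (median log2 change 0.66; all genes 32.6% higher, 32.3% lower), and 4 rose and 11 fell with the second (median -0.27; 27.9% higher, 29.9% lower). For the difference between the hairpins, each against the control of its number, 16 of the 22 were lower and 3 higher, against 29.2% and 21.6% of all genes. IL1B and IL1A, cytokines of injured keratinocytes, changed by 3.29 and 2.32 with the first hairpin and by 0.77 and -0.19 with the second. The controls differed for both genes, with IL1B at 7.67 CPM in NS1 and 14.7 in NS2, and IL1A at 15.3 and 36.2. IL1A held 31.6 CPM in EP300 KD2, below NS2 but above NS1, so its direction with the second hairpin depends on the control taken. AREG, a ligand of the EGF receptor, rose by 1.099 with the first and was not called with the second (log2 0.00, edgeR adjusted p = 0.89). It held 1229 CPM in EP300 KD2, close to 1226 in NS2 but above 913 in NS1. The fibronectin receptor subunit ITGA5 rose by 2.04 and 0.48 and the protease PLAU by 1.35 and 0.68. HBEGF, another EGF receptor ligand, changed by -1.02 and -1.97, and LCN2 by -2.86 and -2.59.

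Of the other intermediate filaments, 4 of 7 tested rose and 3 fell with the first hairpin (median log2 change 0.50; all genes 32.6% higher, 32.3% lower), and 5 rose and 1 fell with the second (median 0.58; 27.9% higher, 29.9% lower). VIM, the filament of mesenchymal cells, had 548 ± 11.7 CPM in NS1 and 2163 ± 52.5 in EP300 KD1, and 612 ± 12.2 in NS2 and 1513 ± 17.98 in EP300 KD2. Its log2 changes were 1.98 and 1.31 (edgeR adjusted p = 2.45e-21 and 6.72e-19). LMNA, the nuclear lamin, changed by -0.30 and -0.31.

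Markers of cell types were summed in each library to set beside the keratins. The 9 mammary epithelial markers, which include KRT5, KRT14 and TP63, were all tested. Without KRT14, 6 of 8 fell with the first hairpin, where 32.3% of all genes fell and 32.6% rose. The 2 that rose were ITGA6 and the non-coding row of KRT8. With the second hairpin 7 fell, where 29.9% of all genes fell and 27.9% rose. The sum of the 9 markers ran from 7008 to 7198 CPM in NS1, 5217 to 5254 in EP300 KD1, 8269 to 8362 in NS2 and 4563 to 4670 in EP300 KD2. KRT5 alone held 2730, 1669, 3374 and 1413 CPM of it on average in that order, so this sum is not separate from the keratins. CDH1, the epithelial cadherin, stood at 383 CPM in NS1, 211 in EP300 KD1, 377 in NS2 and 181 in EP300 KD2 (log2 changes -0.86 and -1.06), and was present in every group, while KRT14, another of these markers, was near 0. Of the 5 fibroblast markers tested of 9, 4 rose and 1 fell with the first hairpin (all genes 32.6% higher, 32.3% lower). With the second 3 of them rose and 1 fell (all genes 27.9% higher, 29.9% lower). Their sum was 51.1 to 52.6 CPM in NS1, 96.2 to 99.9 in EP300 KD1, 33.0 to 35.5 in NS2 and 37.4 to 39.7 in EP300 KD2, with COL1A2, COL3A1 and LUM at 0 counts in every library. The collagen COL1A1 was present and rose, from 8.97 to 16.3 CPM and from 8.19 to 10.06 (log2 0.86 and 0.30), and the proteoglycan DCN rose by 2.57 and 1.245. FBLN1 was the marker that fell, from 30.3 to 7.84 CPM and from 15.4 to 5.76 (log2 -1.95 and -1.41). The part of these fibroblast marker changes in the keratin changes was not tested.

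Markers of other cells summed to far less than the mammary epithelial markers in every group. Of all genes tested 32.6% rose and 32.3% fell with the first hairpin, and 27.9% rose and 29.9% fell with the second. Leukocyte markers, with 3 of 7 tested, of which ITGAM reached the filter's level only in controls, and with 1 up and 1 down of the other 2 in either comparison, summed to 52.1 to 63.2 CPM in NS1, 67.3 to 74.5 in EP300 KD1, 65.7 to 67.4 in NS2 and 37.8 to 40.1 in EP300 KD2. Endothelial markers, with 3 of 5 tested (TEK passed the filter through the knockdowns; of the other 2, 1 was up and 1 down, then 1 down), summed to 28.8 to 32.9, 13.1 to 15.7, 38.6 to 40.6 and 6.40 to 7.04 CPM in the same order, with CDH5 at 0 in both knockdown groups. Of the 5 HEK293 or neural markers only TUBB3 was tested, and it was higher with both hairpins. These markers summed to 49.4 to 55.8, 98.8 to 113, 40.3 to 41.5 and 113 to 121 CPM in the same order. Nearly all of this was TUBB3, and ELAVL4 was at 0 throughout. The part of these shifts in the keratin changes was not tested.

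Across the 12 libraries the keratins did not share a single pattern. The Pearson correlation of log2 CPM, given as a description because the libraries fall into knockdown and control sets that share line and preparation, was 0.961 for KRT6A with KRT6B, 0.957 for KRT5 with KRT15 and 0.955 for KRT17 with KRT16. It was 0.276 for KRT15 with KRT6A and 0.214 for KRT14 with KRT6A. Among 11147 other genes of at least 1 CPM on average, those most like KRT15 were LXN (0.999), SHROOM3 (0.998) and SLCO2A1 (0.998), and those most like KRT5 were TPD52L1 (0.997), INKA2 (0.996) and SH3BP4 (0.996). KRT17 was nearest to ERRFI1 (0.998), SLITRK6 (0.997) and SCPEP1 (0.996), and KRT14 to MTA2, ENC1 and SH3PXD2A-AS1 (0.991, 0.990 and 0.985). KRT6A was nearest to MMP14, SCD and TIAM1 (0.988 each), KRT6B to MEAK7, TMEM63B and HK1 (0.992, 0.986 and 0.985), and KRT16 to AQP3, CCNA1 and UBE2H (0.994, 0.993 and 0.991).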

How the data were processed

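Messenger RNA libraries (stranded TruSeq, per the labels' protocols) of 12 samples in 4 groups of 3 were analysed. The authors used HISAT2 2.1.0, hg38 and featureCounts, per the submitters' processing notes. Not given in the sources used here are its release of gene models and how strand and multi-mapped reads were handled. Deposited were raw counts for 29094 RefSeq accessions. Symbols came from a RefSeq gene table (28130 rows) and GENCODE v29 (506 more), and 458 rows had none. Rows were filtered with filterByExpr, scaled by TMM and fitted with edgeR 4.0.16 (quasi-likelihood, 1 coefficient per group, Benjamini-Hochberg over 13424 genes, threshold 0.05). SEs were derived from the test statistic. Totals of 31396653 to 45606950 counts and a common biological coefficient of variation of 0.030 set the precision. Replicates within a group differed by more than counting error (chi-square over degrees of freedom 1.81 to 4.31) and were kept apart.

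Ratios of counts (0.5 added) were tested by exact permutation with numpy 2.4.6, and those with KRT14 are given without p-values. KRT15/KRT5 was added to the ratios after the values were seen. Correlations used log2 CPM with a prior count of 2. Coding length served for levels per length. Alternatives were DESeq2 1.42.0, limma-voom (limma 3.58.1), other scalings, no filter, other controls, a replicate block and leaving out each library; exchanged controls for the difference, and counts without genes that reached the filter's level on one side only, were added after seeing the data. The procedure was also tested on simulated data. Named were the 7 keratins, EP300, up to 4 members of each list by smallest p, the 3 genes most correlated with each keratin, and nearest tested neighbours. The keratins and lists were chosen with earlier results of these data known.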

Additional observations from a re-analysis of the deposited data

Results flagged for a closer look

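The change with the second hairpin minus that with the first passed the edgeR threshold for the 31 genes below, where 50.8% of all genes tested did. Among the keratins this log2 difference was -0.55 for KRT5, -0.75 for KRT17, -1.44 for KRT6A, -0.96 for KRT6B, -1.84 for KRT16 and -1.09 for KRT6C. It was 0.53 for KRT10, 0.20 for KRT18, 0.24 for KRT7 and 0.37 for KRT81. KRT13 stood at 2.22, but it reached the level of the filter in the controls alone, so its call is not read as a result. That value rests on 0.0707 CPM in EP300 KD1 and 0.136 in EP300 KD2. For EP300 it was -0.18. These values, and those of the next paragraph, take the control of the same number for each hairpin. With the controls exchanged KRT5 no longer passed, at 0.07. Exchanged values are given only for the 7 keratins and EP300. Some other listed genes differed between the controls, so their differences depend on the control taken. For NS2 against NS1 the log2 change was 0.94 for IL1B, 0.58 for HBEGF, -0.53 for KRT10 and -0.24 for GATA3. IL1A held 15.3 CPM in NS1 and 36.2 in NS2. The controls were close for others, such as CDH1 (-0.02) and DSG3 (0.01).

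Among linkers and adhesion genes the difference was -0.29 for DST, -0.87 for COL17A1, -0.15 for DSC2, -0.70 for DSG3, -1.11 for PPL, -0.87 for ITGA6 and -0.20 for CDH1. Among transcription factors it was -0.43 for TP63, 0.14 for GRHL2, 0.53 for RARG and 0.27 for GATA3. Among genes of activated epidermis it was -2.51 for IL1B, -2.51 for IL1A, -1.55 for ITGA5, -1.09 for AREG, -0.94 for HBEGF and -0.67 for PLAU. VIM differed by -0.67 and EIF1 by -0.18.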

How the results depend on the processing

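The keratins other than KRT14 kept their direction and their side of the threshold in both hairpin comparisons under every alternative run. KRT14, given without a test, kept its direction. Other results did change: for NS2 against NS1, KRT14 under DESeq2 (log2 -0.98, adjusted p = 0.0547), and the KRT15 difference between the hairpins, which without being called changed sign to -0.000376, -0.00348 and -0.00303 without the third NS2, the third EP300 KD1 or the second EP300 KD2 library (range over single libraries left out -0.00348 to 0.0419). With the controls exchanged, added after seeing the data, the difference between the hairpins turned sign for KRT5 (0.0655, call lost), KRT14 (-1.20, without a test) and KRT15 (-0.68, call gained). With paired transcript lengths the shares of the summed keratins in NS1, EP300 KD1, NS2 and EP300 KD2 were 48.9, 44.8, 55.7 and 57.6% for KRT5, 7.61, 0.617, 5.51 and 0.742% for KRT15 and 70.7, 85.5, 77.7 and 88.9% for type II, since the lengths differ most for KRT15. Scaling moved the split of all calls. With the second hairpin 3744 genes were higher and 4018 lower, but 4979 and 3144 by library totals, 4630 and 3358 by upper quartile and 4660 and 3443 with no filter. For the difference 2903 and 3915 became 3780 and 3117 by library totals. Same-numbered replicates did not deviate together (correlations from -0.04 to 0.03). With the replicate block, each keratin other than KRT14 kept its direction and its call with either hairpin, and no other call changed. KRT14, at 4 to 47 counts a library, is where depth limits the values.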
